A study of Mus musculus with 9 samples.

Results

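The oxidative phosphorylation subunits encoded in the nucleus were examined in bone marrow-derived macrophages (BMDMs) of C57BL/6J mice on the way to becoming osteoclasts. The members were chosen by gene symbol: the Nduf subunits of complex I, Sdha to Sdhd of complex II, the Uqcr genes and Cyc1 of complex III, the numbered Cox genes of complex IV, the Atp5 genes of complex V and the electron carrier Cycs. The symbols matched 87 of 28379 genes in the table, after 12 symbols that end in a pseudogene suffix, the assembly factors and the genes of the mitochondrial genome were set aside. The rule went by symbol alone, so 4 genes that the table annotates as processed pseudogenes stayed in: Ndufa11b, Ndufb4c, Ndufs6b and Cox6c2. The 3 of these that could be tested were not called in any comparison (edgeR), and Ndufa11b was too low to test. Of the 87, complex I held 40, complex II 4, complex III 9, complex IV 16 and complex V 17, with Cycs as 1 more. The set was put forward with the group differences of these libraries already known, so the counts of members below are a description and no test of the set as a whole was made.

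RNA was sequenced from 3 groups of 3 libraries. All cultures received macrophage colony-stimulating factor (M-CSF, 20 ng/ml), which keeps macrophages alive. The PBS group had M-CSF alone, the RANKL group also had RANKL (100 ng/ml), the cytokine that drives osteoclast formation, and the RANKL + Vit D + K group, called the vitamin group below, had RANKL with vitamin D (calcitriol, 1000 nM) and vitamin K (menaquinone-4, 20 μM in the labels, while the study's methods give a higher concentration). Treatment lasted 48 h. No vitamin was given alone and none without RANKL. The methods mention pooled RNA and leave unstated the number of mice or cultures per library, so the p-values measure the spread between these libraries, which may be technical.

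Oxidative phosphorylation takes place in the inner mitochondrial membrane. Complex I (NADH dehydrogenase) and complex II (succinate dehydrogenase) pass electrons to ubiquinone, complex III hands them to cytochrome c, and complex IV (cytochrome c oxidase) gives them to oxygen. Complexes I, III and IV pump protons on the way, and complex V (ATP synthase) lets them flow back to make ATP. Most subunits are nuclear genes, and a few hydrophobic core subunits are made from the mitochondrial genome. Osteoclasts are known for their many mitochondria, and nuclear respiratory factor 1 (NRF1), the GA-binding protein of the ETS family and YY1 are known to bind promoters of respiratory genes.

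A promoter window (250 bases before to 50 after a RefSeq start, build GRCm38.p6) was matched to 67 of the 87 members. The NRF1 core GCGCATGC, searched on both strands, was in 11 of the 67 windows (16.4%), against 3.05% of 27025 genes with a window and 5.69% of the 10883 that also passed the count filter. The YY1 motif AAGATGGC was in 10 (14.9%, against 5.16% of the genes that passed), and the ETS motif CCGGAAGT in 5 (7.46%, against 8.86%). These are matches of letters in a window, not measured binding. Below, the 170 bases before the start are shown for 1 gene with an NRF1 core match in complexes I, II, IV and V and for Cycs, because these windows show the motif that was most frequent among the members. Letters in capitals mark the NRF1 core, read in either direction, and where the core overlaps its own reverse complement the run of capitals is longer.
Ndufa8, chr2:36049339-36049508, minus strand: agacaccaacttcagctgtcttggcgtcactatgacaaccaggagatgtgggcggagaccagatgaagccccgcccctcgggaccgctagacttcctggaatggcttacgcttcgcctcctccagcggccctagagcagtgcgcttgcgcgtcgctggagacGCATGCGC
Sdhb, chr4:140961101-140961270, plus strand: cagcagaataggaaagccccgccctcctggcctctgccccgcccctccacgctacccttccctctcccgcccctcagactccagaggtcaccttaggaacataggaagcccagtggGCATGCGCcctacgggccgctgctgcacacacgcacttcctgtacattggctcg
Cox6a1, chr5:115348959-115349128, minus strand: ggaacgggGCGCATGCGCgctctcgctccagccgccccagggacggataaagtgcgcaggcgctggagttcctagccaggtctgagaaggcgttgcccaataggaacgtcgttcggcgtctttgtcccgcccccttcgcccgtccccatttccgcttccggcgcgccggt
Atp5k, chr5:108434400-108434569, minus strand: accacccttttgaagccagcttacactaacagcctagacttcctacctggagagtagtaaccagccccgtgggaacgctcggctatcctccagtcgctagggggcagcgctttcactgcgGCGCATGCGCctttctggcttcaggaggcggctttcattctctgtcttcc
Cycs, chr6:50566570-50566739, minus strand: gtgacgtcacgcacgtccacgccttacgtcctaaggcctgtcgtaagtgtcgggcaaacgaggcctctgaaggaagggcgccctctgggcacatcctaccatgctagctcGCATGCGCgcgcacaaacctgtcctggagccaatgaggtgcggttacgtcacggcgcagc

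Depth was nearly equal, with 65915112 to 68229647 counts per library. Differences were tested by edgeR's quasi-likelihood test on the counts of all 9 libraries, with Benjamini-Hochberg adjustment over 17002 genes, and "called" means an adjusted p under 0.05. Levels are given as FPKM, fragment counts scaled by transcript length and library size. The fold changes use counts further scaled by TMM, a factor for each library. The factor was 0.963 to 0.993 in PBS, 1.04 to 1.11 in RANKL and 0.891 to 1.06 in the vitamin group. FPKM therefore sets RANKL higher against the other groups, on average, than the fold changes do. The summed FPKM of 10 osteoclast markers ranged over 23.6 to 31.8 in the PBS group, 489 to 1022 in the RANKL group and 70.4 to 100.4 in the vitamin group, and that of 6 macrophage markers over 26260 to 30462, 16595 to 24172 and 4484 to 11506. The 8 neutrophil markers summed to 11.1 to 128, 11.3 to 148 and 0.551 to 1.72, while lymphocyte, stromal and erythroid markers summed to at most 1.79 in any library. Of the listed markers, 2 of 5 for lymphocytes and 3 of 4 for erythroid cells were in the table, so these sums rest on few genes. No marker in the table was at 0 in all libraries. Replicate 2 of the vitamin group stood apart from the others of its group on the first principal component (58.5, against 152 and 127, with the PBS and RANKL libraries below 0). Values are therefore also given without it. In these bulk libraries, fewer cells of a type and less RNA per cell cannot be told apart, and the part of the cell mixture in the results below was not tested.

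Of the 87 members, 84 passed the filter on low counts. Ndufa4l2 had no count in any library, Ndufa11b had 1 count in all, and Cox4i2 had 4 counts, in a single PBS library, so neither the Ndufa4l2 nor the Cox4i2 transcript could be compared at this depth. The tested members were abundant, short transcripts: their median was 27.2 FPKM against 2.98 over all genes tested, and the median length implied by counts and FPKM was 1764 bases against 3987.

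Transcripts of every complex summed to more in RANKL than in PBS and to less again when the vitamins were added. Over all 87 members the PBS libraries summed to 2740 ± 136 FPKM (SD, n = 3), the RANKL libraries to 4010.5 ± 317 and the vitamin libraries to 2742 ± 428, which was 0.945%, 1.36% and 1.01% of all FPKM. Complex I summed to 743.6, 808.3 and 719.7 in the PBS libraries, to 1038.5, 1135.9 and 961.2 in the RANKL libraries, and to 629.6, 895.5 and 633.6 in the vitamin libraries. Each RANKL library was thus above all others. The RANKL to PBS ratio of the summed means was 1.38 for complex I, 1.61 for complex II, 1.55 for complex III, 1.37 for complex IV and 1.58 for complex V. The ratio of RANKL + Vit D + K to RANKL was 0.688, 0.546, 0.674, 0.723 and 0.675 in the same order, lowest for complex II. These ratios are of FPKM, without the TMM factors, so they differ in size from the fold changes below. The RANKL libraries lay above both other groups in all 5 complexes. The vitamin libraries overlapped the PBS libraries in each of the sums of complexes I to V, with replicate 2 the highest of its group in each.

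**Figure D1:**
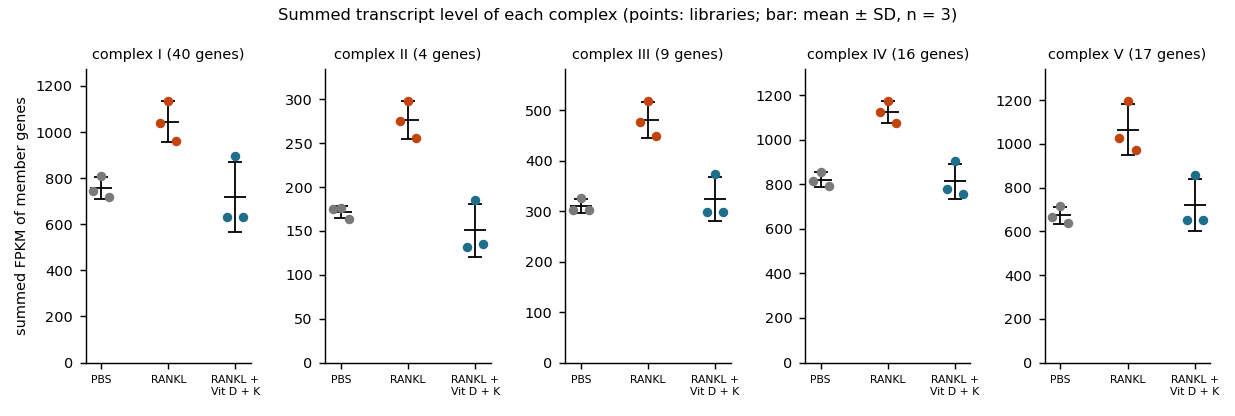
Summed FPKM of the member genes of complexes I to V (vertical axes, from 0) in each library (points) of the PBS, RANKL and vitamin groups, with the mean and SD of 3 libraries as bars. In complex II the RANKL libraries sit between 255.4 and 298.3, above the PBS libraries (163.4 to 176.1) and the vitamin libraries (131.9 to 185.7).

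In the comparison of RANKL with PBS, which asks what 48 h of RANKL changed, 22 of the 84 tested members (26.2%) were called higher and none lower. Over all genes tested, 2.35% were called higher and 1.26% lower. The median log2 fold change was 0.48 over the members and -0.04 over all genes. None was lower at an unadjusted p under 0.05 and none by DESeq2. By DESeq2, run on all 28379 genes, 45 were higher (51.7% of 87 members, beside 3.72% of all genes). At an unadjusted p under 0.05, 55 were higher, and the share of all genes at that threshold was not counted. In 66 of the 84 members the RANKL libraries all lay above the PBS libraries in depth-scaled counts, against 15.7% of all genes. With the replicate number as a block, 31 members were called higher (3.16% of all genes), the 22 among them, and the other 9 were Ndufa12, Uqcrb, Cox6a1, Cox6b1, Cox6c, Cox7b, Atp5a1, Atp5j2 and Atp5md. This count leaned on few libraries. It fell to 1 without PBS replicate 1, without PBS replicate 3 or without RANKL replicate 1, and Atp5b was that member each time (1.19%, beside 0.602%, 0.540% and 0.684% of all genes). It was 4 without PBS replicate 2, 2 without RANKL replicate 2 and 9 without RANKL replicate 3. These were 4.76%, 2.38% and 10.7% of the members, beside 0.767% to 1.28% of all genes. The count rose to 50 (59.5%, beside 5.46% of all genes) without vitamin replicate 2, which is in neither group and enters through the shared fit. The median hardly moved under these omissions, from 0.45 to 0.56. With the trend on transcript length removed from each library 20 were called (23.8%, beside 2.21% of all genes), 17 of the 22 among them. By complex these 20 were 4 in complex I, 3 in complex II, 1 in complex III, 4 in complex IV and 7 in complex V, with Cycs.

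The vitamins were then compared with RANKL alone, the comparison that asks what vitamins D and K changed in cells given RANKL, and 50 of the 84 members (59.5%) were called lower and 2 higher. Over all genes 17.2% were called lower and 16.4% higher. The median log2 fold change was -0.46 over the members and -0.04 over all genes, and 63 members lay below RANKL in all 9 pairs of libraries, against 25.4% of all genes. The 2 that rose were Cox6a2 and Uqcrq, and both were called in every one of the 18 alternative fits. Without vitamin replicate 2 the members called lower numbered 60 (71.4%, beside 25.2% of all genes), with a median of -0.57 beside -0.11 over all genes. They numbered 19 (22.6%, beside 9.37%) without replicate 3 and 25 (29.8%, beside 11.0%) without replicate 1 of that group. Without RANKL replicates 1, 2 and 3 they numbered 22, 33 and 29 (26.2%, 39.3% and 34.5%, beside 9.16%, 14.7% and 9.9% of all genes). Removal of the length trend left 31 (36.9%, beside 16.0% of all genes), with a median of -0.32, and these were 9 in complex I, 4 in complex II, 4 in complex III, 6 in complex IV and 8 in complex V. Of the 50, 16 were called lower in all 18 alternatives, among them Ndufa13, Ndufb3 and Ndufb5 of complex I, Sdha, Sdhb and Sdhd of complex II, Uqcrh of complex III, Cox5a, Cox6b1 and Cox8a of complex IV, and Atp5d, Atp5g3, Atp5j2, Atp5l and Atp5o of complex V. These 16 were picked out by their values. Both comparisons use the RANKL libraries, so that a high RANKL value enters each with the opposite sign.

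Set against PBS, the vitamin group had 10 members called higher and 4 lower of 84, where all genes gave 19.8% and 21.0%. The median log2 fold change was -0.04 over the members and over all genes. The 10 were Ndufa9, Ndufa12, Ndufb6, Ndufs4, Uqcrc2, Uqcrq, Cox6a2, Cox7c, Atp5b and Cycs, and the 4 were Sdhd, Uqcrh, Cox4i1 and Cox6b2. Without vitamin replicate 2 the members called lower numbered 24 (28.6%, beside 26.5% of all genes in that fit) and those called higher 9 (10.7%, beside 23.3%). The members called lower numbered 2, Cox6b2 and Uqcrh, when PBS replicate 1 or 3 or vitamin replicate 1 or 3 was left out (2.38%, beside 12.9% to 14.5% of all genes). Removal of the length trend gave 16 higher (19.0%, beside 20.8% of all genes) and 3 lower (3.57%, beside 20.2%).

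**Figure D2:**
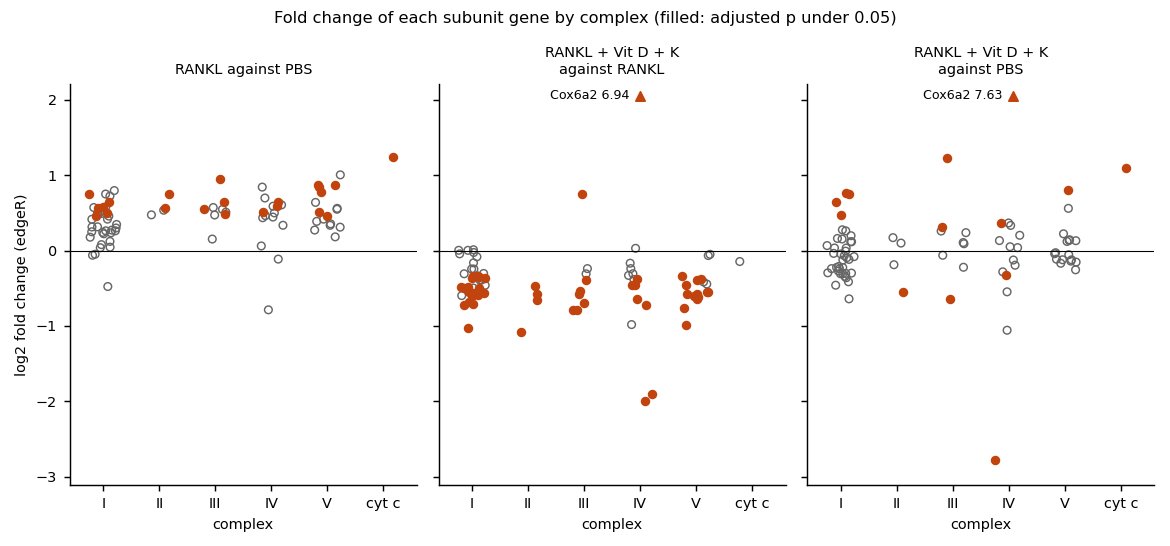
Log2 fold change of each tested member (edgeR, vertical axis) by complex (horizontal axis) in the 3 comparisons, filled where the adjusted p was under 0.05. Most members lie above 0 for RANKL against PBS (79 of 84) and below 0 for RANKL + Vit D + K against RANKL (78 of 84), and Cox6a2, drawn as a triangle with its value, lies beyond the axis in the latter and against PBS.

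Complex I takes electrons from NADH. Of its 38 tested genes, 6 were called higher in RANKL than in PBS (median log2 fold change 0.38) and 20 lower in the vitamin group than in the RANKL group (median -0.39). The N module, which oxidises NADH, had 4 of 8 genes called higher with RANKL (Ndufs1, Ndufs4, Ndufv1 and Ndufv2) and 3 of 8 lower with the vitamins. In the Q module, which reduces ubiquinone, none of 8 was called with RANKL and 4 were lower with the vitamins (Ndufs3, Ndufs7 and Ndufa5 among them). The membrane arm, which moves protons, had 2 of 19 higher with RANKL, Ndufb6 and Ndufa10, and 12 lower with the vitamins. With the length trend removed the members called lower with the vitamins were 9 in complex I, with 1 in the N module, 1 in the Q module and 6 in the membrane arm. The N module gene was then Ndufs1, and Ndufs6, Ndufv1 and Ndufv2 were no longer called. The differences between modules were not tested.

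Ndufa4, which carries a complex I name but is known as a subunit associated with complex IV, had the largest fall among the complex I genes, from 53.3, 67.2 and 48.1 FPKM in RANKL to 16.2, 42.0 and 18.2 with the vitamins, beside 31.9, 42.8 and 29.3 in PBS. Its log2 fold change was -1.03 (SE 0.29, adjusted p = 0.024), replicate 2 of the vitamin group lay far above the other vitamin libraries, and the call was lost when any 1 RANKL library or vitamin replicate 1 or 3 was left out. Ndufc1, a small membrane subunit, had the largest RANKL against PBS value in complex I, 0.79 (adjusted p = 0.067, not called), with 5.44, 6.48 and 6.11 FPKM in PBS, 12.57, 12.47 and 9.16 in RANKL and 4.74, 8.88 and 5.93 with the vitamins. Its fall with the vitamins (-0.68, adjusted p = 0.030) was not called when any PBS library, RANKL replicate 1 or 2, or vitamin replicate 1 or 3 was left out, nor with the length trend removed (-0.46, adjusted p = 0.067).

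A few complex I genes stayed near their RANKL level with the vitamins. Ndufa12, an N module subunit, stood at 3.17, 4.97 and 3.26 FPKM in PBS, 6.19, 8.78 and 5.99 in RANKL and 4.67, 8.73 and 5.86 with the vitamins. The log2 fold change with the vitamins was 0.01 (SE 0.24, adjusted p = 0.98) against RANKL and 0.76 (adjusted p = 0.034) against PBS. The call against PBS was lost without PBS replicate 1 or 3, RANKL replicate 1 or vitamin replicate 2 or 3. It was also lost with both limma fits, without the filter on low counts and with only the groups compared. Ndufb6 and Ndufs4, named after their values were seen, had values against PBS of 0.75 and 0.64 with RANKL and of 0.75 and 0.64 with the vitamins, all 4 called (the RANKL calls were lost without any 1 PBS library or without RANKL replicate 1 or 2, and that of Ndufb6 also without RANKL replicate 3), and a difference of 0.00 between the RANKL and vitamin groups for both genes (SE 0.15 and 0.12). Ndufs6b, annotated as a processed pseudogene, had 3 to 24 counts per library, at 0.47, 0.60 and 0.76 FPKM in PBS, 0.34, 0.50 and 0.60 in RANKL and 0.21, 0.89 and 0.11 with the vitamins, and no call. Counting rules for reads shared between such copies are not stated, so Ndufs6b, Ndufb4c and Cox6c2 and their parent genes are uncertain.

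**Figure D3:**
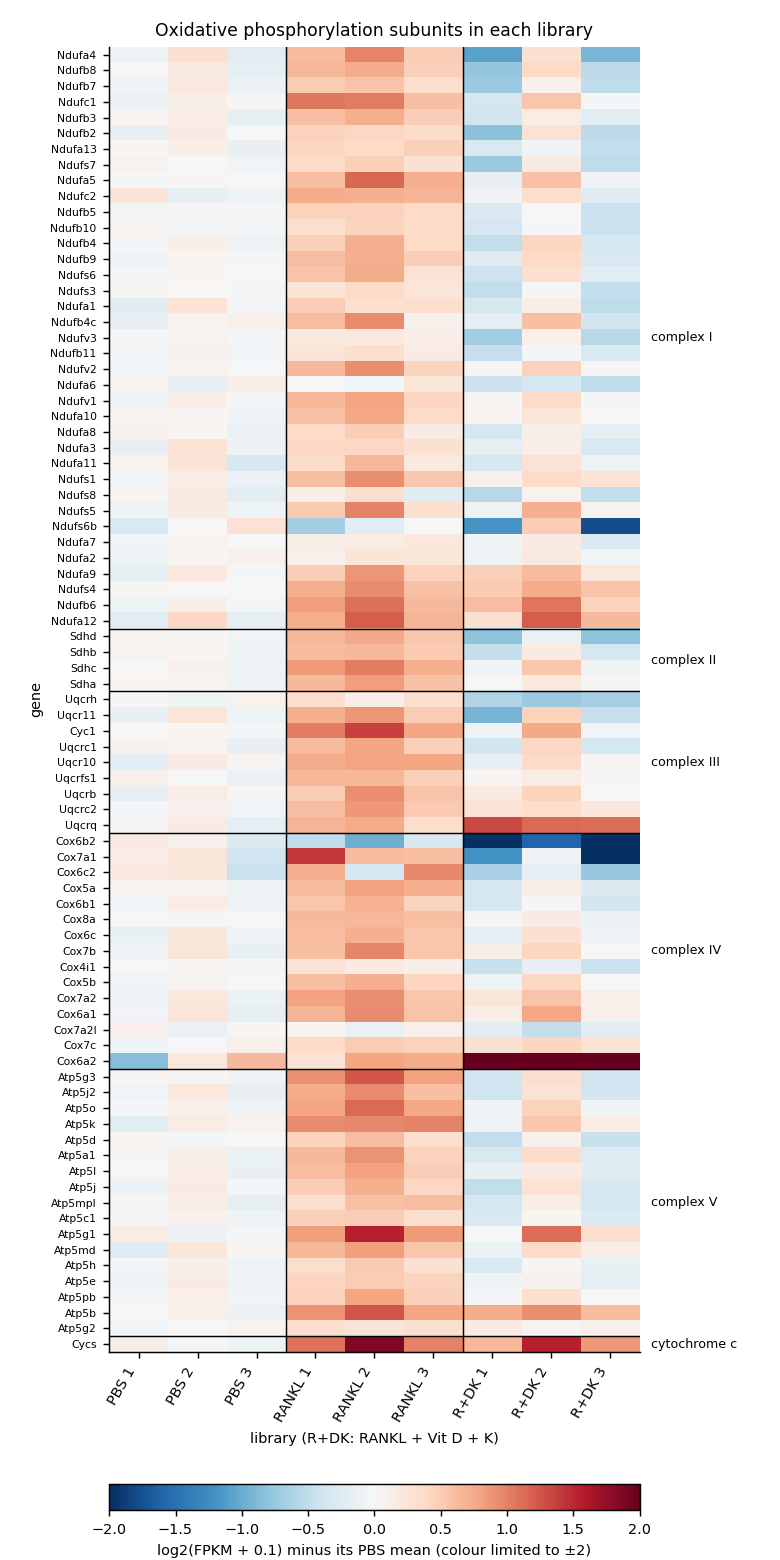
Log2(FPKM + 0.1) of 83 of the 84 tested members (rows, grouped by complex and ordered by fold change with the vitamins) in the 9 libraries (columns), relative to the mean of the PBS libraries, with colour limited at ±2. RANKL libraries are mostly red, and replicate 2 of the vitamin group is redder than the other libraries of its group, being the highest of them for 65 of the 84 tested members (77.4%) and for 44.5% of all tested genes.

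Complex II, the succinate dehydrogenase that also serves the citric acid cycle, is encoded by 4 nuclear genes, and all 4 fell with the vitamins. Sdhd (ENSMUSG00000000171, chromosome 9, 50596357 to 50603812), 1 of the membrane anchors, went from 71.8, 71.2 and 67.7 FPKM in PBS to 111.9, 118.7 and 102.5 in RANKL and to 40.0, 64.0 and 40.1 with the vitamins. Every vitamin library was below every PBS library and every RANKL library. The log2 fold change was -1.08 (SE 0.14, adjusted p = 0.0011) against RANKL and -0.55 (SE 0.14, adjusted p = 0.012) against PBS. The call against PBS was lost when any PBS library or vitamin replicate 1 or 3 was left out. Sdhc, the other anchor, stood at 20.0, 21.2 and 18.9 FPKM in PBS, 36.0, 40.9 and 33.2 in RANKL and 18.8, 29.5 and 19.0 with the vitamins, which was called higher with RANKL (0.75, adjusted p = 0.020) and lower with the vitamins (-0.58, adjusted p = 0.011). The rise was lost without any 1 PBS library or without RANKL replicate 1 or 2, and the fall without vitamin replicate 3.

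Sdha, the flavoprotein that binds succinate, had the smallest errors of the complex. Its levels were 52.2, 52.6 and 48.0 FPKM in PBS, 79.7, 91.1 and 76.0 in RANKL and 51.3, 58.1 and 51.7 with the vitamins. The rise with RANKL was 0.56 (SE 0.09, adjusted p = 0.014) and the fall with the vitamins -0.47 (SE 0.09, adjusted p = 0.0056), and the rise was lost without PBS replicate 1 or 3 or RANKL replicate 1. Sdhb, the iron-sulphur subunit whose NRF1 core is printed above, stood at 31.5, 31.2 and 28.8 FPKM in PBS, 47.1, 47.6 and 43.6 in RANKL and 21.8, 34.0 and 24.03 with the vitamins. It was called lower with the vitamins (-0.66, SE 0.12, adjusted p = 0.0044) and not called with RANKL (0.47, adjusted p = 0.068), though it was with the length trend removed (0.44, adjusted p = 0.040) and in some other alternatives.

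Complex III had 4 of 9 genes called higher with RANKL (Cyc1, Uqcr10, Uqcrfs1 and Uqcrc2) and 6 lower with the vitamins, and it held 1 of the 2 members that rose with them. With the length trend removed, Cyc1 was the 1 gene still called higher with RANKL, and 4 were lower with the vitamins. Uqcrq (ENSMUSG00000044894, chromosome 11, 53427922 to 53430831), the ubiquinone-binding subunit VII, stood at 14.4, 15.95 and 12.4 FPKM in PBS, 22.8, 23.8 and 18.1 in RANKL and 35.4, 31.3 and 31.0 with the vitamins. The groups did not overlap, and PBS, RANKL and RANKL + Vit D + K followed in that order. The log2 fold change was 0.47 (SE 0.15, adjusted p = 0.12) for RANKL against PBS, 0.75 (SE 0.15, adjusted p = 0.0058) for the vitamins against RANKL and 1.22 (SE 0.15, adjusted p = 0.00054) against PBS. The nearest gene on its 5′ side, Gdf9, did not follow it (0.01 with the vitamins, adjusted p = 0.98), while Aff4, which lies on the 3′ side and the opposite strand beyond the nearly silent Leap2, had a log2 fold change of 1.25 with the vitamins (adjusted p = 0.011).

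Uqcrh, the hinge subunit that helps cytochrome c dock, had the largest fall with the vitamins in complex III. Its mean level over all libraries was the highest of the complex, though in the vitamin group others, such as Uqcrfs1 (mean 50.9 FPKM), lay above it. Uqcrh stood at 62.6, 57.9 and 64.4 FPKM in PBS, 78.0, 67.5 and 78.0 in RANKL and 40.5, 36.9 and 38.8 with the vitamins. For Uqcrh the vitamin libraries differed little from each other and lay below all others, with log2 fold changes of -0.79 (SE 0.14, adjusted p = 0.0037) against RANKL and -0.64 (adjusted p = 0.0062) against PBS. Uqcrh overlaps Gm12854 on the opposite strand by 297 bases, and whether strand was used in counting is not stated. Cyc1, the cytochrome c1 heme subunit, had the largest rise with RANKL in the complex: 19.3, 20.0 and 19.1 FPKM in PBS, 39.7, 50.2 and 33.6 in RANKL and 18.1, 33.1 and 18.8 with the vitamins. The rise was 0.95 (SE 0.19, adjusted p = 0.029) and the fall -0.69 (SE 0.19, adjusted p = 0.021). The rise was lost without any 1 PBS library or without RANKL replicate 1 or 2, and the fall without RANKL replicate 1 or 2 or vitamin replicate 1 or 3.

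Cycs, the soluble cytochrome c that carries electrons from complex III to complex IV, was called higher than PBS in both other groups. It stood at 7.71, 6.99 and 6.74 FPKM in PBS, 15.3, 26.01 and 14.3 in RANKL and 11.4, 21.1 and 13.1 with the vitamins. No PBS library overlapped either group. The log2 fold change against PBS was 1.24 (SE 0.23, adjusted p = 0.024) with RANKL and 1.09 (SE 0.23, adjusted p = 0.0057) with the vitamins, and the difference between these groups was -0.15 (SE 0.23, adjusted p = 0.66). The RANKL value was the largest of all 84 members, and its call was lost without any 1 PBS library or without RANKL replicate 1 or 2.

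In complex IV, 3 of 15 genes were called higher with RANKL (Cox5a, Cox7a2 and Cox8a), 7 were lower and 1 was higher with the vitamins. The gene that rose was Cox6a2 (ENSMUSG00000030785, chromosome 7, 128205435 to 128206387), the form of subunit 6A known from heart and skeletal muscle. It stood at 0, 0.11 and 0.18 FPKM in PBS, 0.12, 0.21 and 0.20 in RANKL and 28.9, 8.81 and 23.5 with the vitamins. In counts these were 0, 6 and 10, then 7, 11 and 11, then 1469, 462 and 1190, so that the lowest vitamin library had 462 counts where the highest library of the other groups had 11. The log2 fold change was 6.94 (SE 0.80, adjusted p = 0.00082) against RANKL and 7.63 (SE 0.85, adjusted p = 0.00039) against PBS, and it depends on how near-zero counts are handled, from 4.03 to 7.33 against RANKL across the 18 alternatives. Itgad, whose end overlaps Cox6a2 by 70 bases on the opposite strand, had 9 to 26 counts in every library and a log2 fold change of -0.42 (adjusted p = 0.65).

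The broadly expressed partner Cox6a1 was not called for the vitamins against RANKL, and for RANKL against PBS (0.60, adjusted p = 0.074) it was called with the replicate block (adjusted p = 0.020) and in some other alternatives. It stood at 80.6, 99.4 and 73.3 FPKM in PBS, 134.8, 161.3 and 124.5 in RANKL and 91.4, 143.1 and 90.0 with the vitamins, with -0.24 (adjusted p = 0.27) for the former. Cox6a2 therefore made up 24.03%, 5.80% and 20.7% of the summed Cox6a1 and Cox6a2 FPKM in the vitamin libraries and at most 0.247% in any other. Of the other paired subunits, Cox6b2, the testis form of subunit 6B, was low throughout: 0.783, 0.728 and 0.543 FPKM in PBS, 0.446, 0.295 and 0.523 in RANKL and 0.0828, 0.159 and 0.0391 with the vitamins. It fell with the vitamins against RANKL (-1.99, SE 0.54, adjusted p = 0.020) and against PBS (-2.78, adjusted p = 0.0042), and across the 18 alternatives the values ran from -2.39 to -0.38 and from -3.18 to -0.62. Cox7a1, the muscle form of subunit 7A, stood at 1.44, 1.53 and 0.960 FPKM in PBS, 3.61, 2.04 and 2.005 in RANKL and 0.499, 1.20 and 0.208 with the vitamins. It too fell with the vitamins (-1.90, SE 0.57, adjusted p = 0.031). The fall against RANKL was lost for Cox6b2 without RANKL replicate 1 or 3 or vitamin replicate 1 or 3, and for Cox7a1 without those or PBS replicate 1. These genes had 4 to 66 and 9 to 146 counts per library.

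**Figure D4:**
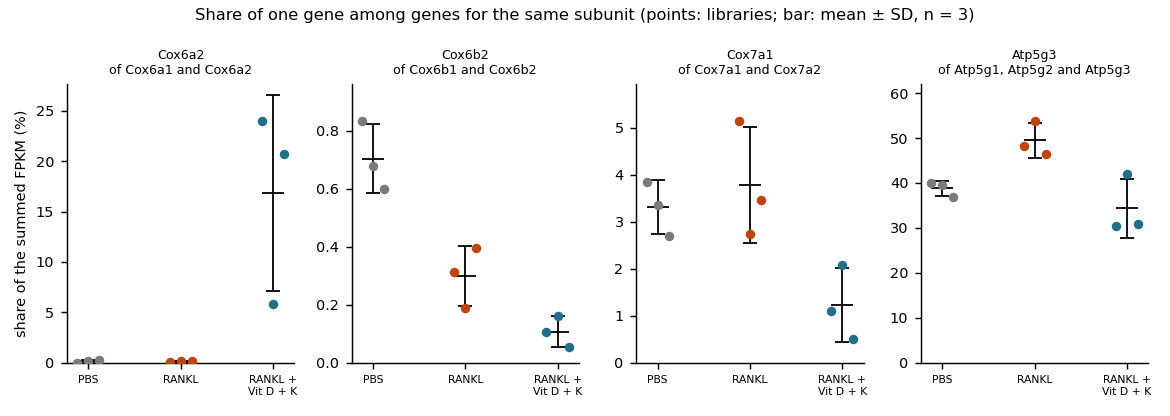
Share of 1 gene in the summed FPKM of the genes for the same subunit (vertical axes in percent, from 0) by library (points) and group, with the mean and SD of 3 libraries as bars. Cox6a2 rises from at most 0.247% to between 5.80% and 24.03% with the vitamins, and the Atp5g3 share is highest in the RANKL libraries (46.4% to 53.9%).

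The abundant partners of these genes, Cox6b1 and Cox7a2, moved in the direction of most other members, though neither was called in both comparisons. Cox6b1 was not called for RANKL against PBS, though it was in some alternatives. Cox6b1 stood at 93.1, 106.9 and 90.2 FPKM in PBS, 141.9, 156.7 and 131.9 in RANKL and 77.6, 98.4 and 74.5 with the vitamins, a fall of 0.64 on the log2 scale against RANKL (SE 0.10, adjusted p = 0.0029). Cox7a2 stood at 35.9, 44.0 and 34.5 FPKM in PBS, 66.5, 72.4 and 55.8 in RANKL and 45.1, 56.5 and 40.9 with the vitamins, with a rise of 0.64 with RANKL (adjusted p = 0.033) and -0.31 with the vitamins (adjusted p = 0.099, not called here but in some alternatives). The Cox7a2 rise was lost without PBS replicate 1 or 3 or any 1 RANKL library. Cox8a, a small core-binding subunit, stood at 113.9, 116.4 and 114.5 FPKM in PBS, 179.9, 181.7 and 174.0 in RANKL and 116.5, 128.9 and 106.5 with the vitamins. Its groups were tight, with a rise of 0.51 (SE 0.09, adjusted p = 0.021) and a fall of -0.46 (SE 0.09, adjusted p = 0.0063), though the rise was lost when any 1 PBS or RANKL library was left out. Cox4i1 had the highest mean of all members over the 9 libraries (165.6 FPKM), though Atp5a1 lay above it in RANKL and Atp5b with the vitamins. It differed little with RANKL: 169.5, 174.3 and 165.3 FPKM in PBS, 204.0, 190.2 and 184.1 in RANKL and 125.0, 151.9 and 126.0 with the vitamins.

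The log2 fold change of Cox4i1 was 0.06 (SE 0.09, adjusted p = 0.80) with RANKL, -0.38 (SE 0.09, adjusted p = 0.015) with the vitamins against RANKL and -0.32 (adjusted p = 0.024) against PBS. With the length trend removed neither fall was called (adjusted p = 0.29 and 0.28). The fall against RANKL was also lost without RANKL replicate 1 or vitamin replicate 3, and that against PBS without any 1 PBS library or without vitamin replicate 1 or 3. Cox7b, another small subunit, stood at 43.1, 54.8 and 41.5 FPKM in PBS, 70.2, 90.8 and 67.8 in RANKL and 50.3, 62.0 and 46.0 with the vitamins. Its differences of 0.59 (adjusted p = 0.051) and -0.39 (adjusted p = 0.055) were not called, though each was in several alternatives, the first also with the replicate block (adjusted p = 0.022). Cox7a2l, a supercomplex assembly factor matched by its symbol, was high in all libraries (109.2 to 166.1 FPKM), and its log2 fold changes were -0.11, -0.17 and -0.28 for RANKL against PBS and for the vitamins against RANKL and against PBS, none of them called.

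Complex V had 6 of 17 genes called higher with RANKL (Atp5b, Atp5g3, Atp5k, Atp5l, Atp5o and Atp5pb) and 13 lower with the vitamins, and its median log2 fold changes were 0.52 and -0.55. The F1 head, which makes ATP, had 1 of 5 genes higher with RANKL and 4 of 5 lower with the vitamins, and the Fo part and peripheral stalk 5 and 9 of 12. With the length trend removed the falls numbered 2 in the head and 6 in the Fo part and stalk. Atp5a1, the alpha subunit of the head, had the highest mean level in the complex over all libraries, though Atp5b lay above it in the vitamin group. It stood at 137.4, 146.1 and 122.7 FPKM in PBS, 210.8, 252.9 and 185.4 in RANKL and 109.3, 174.3 and 112.9 with the vitamins. It fell with the vitamins (-0.58, SE 0.15, adjusted p = 0.017), a call lost without RANKL replicate 1 or 2 or vitamin replicate 1 or 3, and was not called with RANKL (0.55, adjusted p = 0.082), though it was with the replicate block (adjusted p = 0.032) and in some other alternatives. Its partner in the catalytic head, the beta subunit Atp5b, did otherwise, and is named because its values stood out. Atp5b stood at 94.0, 99.6 and 86.1 FPKM in PBS, 174.5, 222.6 and 160.5 in RANKL and 156.4, 177.9 and 145.0 with the vitamins. Its log2 fold change was 0.86 with RANKL (SE 0.12, adjusted p = 0.0078), 0.80 with the vitamins against PBS (SE 0.12, adjusted p = 0.0012) and -0.07 between these groups (SE 0.12, adjusted p = 0.69). It was the 1 member called higher with RANKL in all 18 alternatives.

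Atp5g1, Atp5g2 and Atp5g3 encode the same mature c subunit of the proton-driven rotor and are separate genes with different leader peptides. Atp5g3 stood at 37.9, 37.7 and 35.2 FPKM in PBS, 69.8, 87.5 and 64.5 in RANKL and 28.0, 46.1 and 27.9 with the vitamins, a rise of 0.87 (SE 0.16, adjusted p = 0.020) and a fall of -0.99 (SE 0.16, adjusted p = 0.0026). The rise was lost without any 1 PBS library or without RANKL replicate 1 or 2. Atp5g2 moved less, with 53.0, 54.7 and 56.9 FPKM in PBS, 69.3, 65.2 and 68.6 in RANKL and 61.2, 56.8 and 58.5 with the vitamins, and was not called. Its RANKL against PBS log2 fold change ran from 0.12 to 0.30 across the 18 alternatives, and 1 of them called it. Atp5g1 was the least abundant, with 3.60, 2.97 and 3.15 FPKM in PBS, 5.86, 9.69 and 5.90 in RANKL and 3.22, 7.08 and 4.11 with the vitamins. Its RANKL value of 1.00 was the largest in complex V and was not called (adjusted p = 0.067). The Atp5g3 share of the summed FPKM was 36.9% to 40.1% in PBS, 46.4% to 53.9% in RANKL and 30.3% to 41.9% with the vitamins.

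The 13 genes of the mitochondrial genome make the remaining subunits, and 8 of them (61.5%, beside 17.2% of all genes) were called lower with the vitamins than in the RANKL group. All 7 complex I genes (mt-Nd1 to mt-Nd6 and mt-Nd4l) and mt-Cytb of complex III were called lower, with log2 fold changes from -0.36 to -1.08. None of mt-Co1, mt-Co2 and mt-Co3 of complex IV (0.27, 0.20 and -0.13) and neither mt-Atp6 nor mt-Atp8 of complex V (-0.22 and -0.24) was called by edgeR. DESeq2 called 10 lower, mt-Atp6 and mt-Atp8 included, and the difference between the complexes was not tested. The largest fall was that of mt-Nd3, at 203.9, 217.4 and 152.6 FPKM in PBS, 363.2, 419.3 and 287.9 in RANKL and 98.3, 270.5 and 101.2 with the vitamins (-1.08, SE 0.32, adjusted p = 0.029). Replicate 2 was again the highest of the vitamin libraries, below every RANKL library. The most abundant, mt-Co1, stood at 7064, 7302 and 7567 FPKM in PBS, 7332, 7359 and 7937 in RANKL and 8326, 8056 and 8151 with the vitamins, and was not called in this fit. RANKL against PBS gave no call among the 13 in edgeR, with 9 higher and none lower at an unadjusted p under 0.05, 2 higher by DESeq2 and 1 with the replicate block. With only the groups compared 9 were called higher (beside 6.32% of all genes), and without vitamin replicate 2 it was 7 (beside 5.46%). Against PBS, mt-Co2 was called higher with the vitamins (0.40, adjusted p = 0.015) and none lower, while without vitamin replicate 2 mt-Nd5 was the 1 mt-Nd gene not called lower (6 of 7 were). None of the 8 was called in every alternative. With the length trend removed, mt-Nd3 and mt-Cytb were still called lower and mt-Co1 and mt-Co2 were called higher. The 8 falls numbered 10, with mt-Co1 and mt-Co2 higher, without replicate 2 of the vitamin group, 0 without its replicate 3 and 1, mt-Cytb, without its replicate 1. They were 1, 2 and 1 without RANKL replicates 1, 2 and 3, and 2, 4 and 3 without PBS replicates 1, 2 and 3. With only the groups compared the falls numbered 1, mt-Cytb (beside 11.9% of all genes), and without the filter on low counts 4 (beside 9.29%). The libraries were made with oligo(dT), and most mitochondrial genes are transcribed together, so the 13 cannot be taken as independent of each other.

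**Figure D5:**
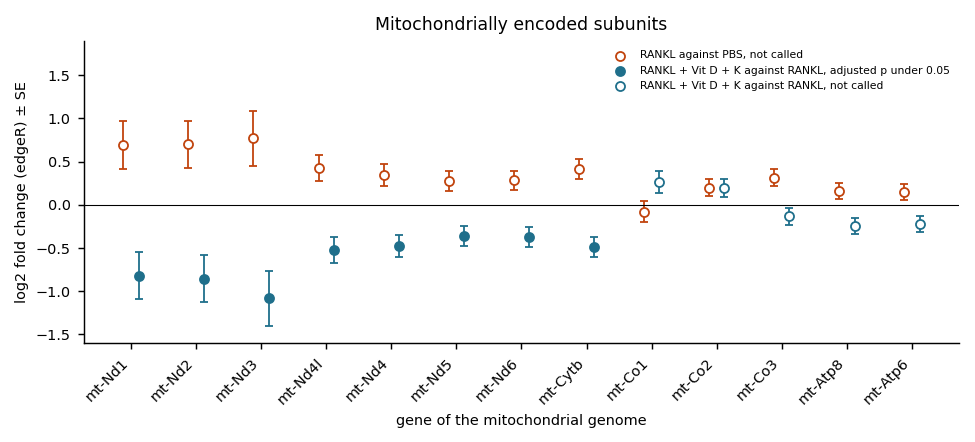
Log2 fold change with its SE (edgeR, vertical axis) of the 13 subunit genes of the mitochondrial genome (horizontal axis) for RANKL against PBS and for RANKL + Vit D + K against RANKL, filled where the adjusted p was under 0.05. The 7 mt-Nd genes and mt-Cytb lie below 0 with the vitamins, and mt-Co1 and mt-Co2 above it.

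Other genes of the pathway gave a mixed picture. Of 49 tested assembly factors, which build the complexes and are not part of them, 1 was called higher with RANKL (Ecsit, 0.71, adjusted p = 0.049), a call lost with the replicate block, where Ndufaf5 was the 1 called, and with the length trend removed, where Cox15 was. With the vitamins against RANKL 11 (22.4%) were lower and none higher, where 17.2% of all genes were lower and 16.4% higher, and with the length trend removed 6 were lower and 3 higher. The largest fall among them was that of Sdhaf4, a complex II assembly factor (-1.17, SE 0.29, adjusted p = 0.014). Against PBS, 13 assembly factors (26.5%) were higher and 9 (18.4%) lower with the vitamins, beside 19.8% and 21.0% of all genes. Of 6 further subunits and regulators, Hccs, which attaches heme to cytochrome c, was called higher with the vitamins (0.82, adjusted p = 0.013) and Higd2a, a supercomplex factor, lower (-0.79, adjusted p = 0.0066). Of 18 genes of the citric acid cycle and its entry, 5 (27.8%, against 2.35% of all genes) were called higher with RANKL, with Idh3a the largest (1.61, SE 0.30, adjusted p = 0.024). With the vitamins, 2 (11.1%) were higher and 2 (11.1%) lower than with RANKL, beside 16.4% and 17.2% of all genes, and 12 (66.7%, against 19.8% of all genes) were higher than in PBS. The largest rise of these was that of Pcx, pyruvate carboxylase (1.03, SE 0.17, adjusted p = 0.0027), and the largest called fall that of Mdh2 (-0.54, adjusted p = 0.034), and with the length trend removed none was called lower.

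The calls were also counted by promoter match. Of the 11 members with an NRF1 core, 3 were called higher with RANKL and 6 lower with the vitamins, of the 10 with the YY1 motif 2 and 7, of the 5 with the ETS motif 1 and 5, and of the 42 with none of these letters 12 and 25. These are counts without a test. No window was given for Cox6a2, Uqcrq or Cyc1.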

How the data were processed

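RNA-seq of 9 libraries (3 groups of 3) was analysed from 1 deposited table. Per the methods and the submitters' processing notes, oligo(dT) libraries were sequenced in pairs, trimmed with cutadapt 1.9, aligned with HISAT2 2.0.4 and assembled with StringTie 1.3.4d. The notes name hg38, although the gene IDs and positions are those of mouse GRCm38. The authors deposited a read count per gene, not normalised, and an FPKM value per gene, scaled by length and depth. Strand use and the treatment of reads shared between copies are not given in the sources used here.

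Counts were fitted with edgeR 4.0.16 (R 4.3.3, TMM, filterByExpr, quasi-likelihood test, Benjamini-Hochberg over 17002 genes, threshold 0.05) in 1 model over the 3 groups. Each SE was taken from the log2 fold change and its quasi-likelihood F statistic (absolute value over root F). Sums and shares used FPKM and are described without a test, since an exact permutation test of 3 libraries against 3 cannot go below p = 0.1. Alternatives were DESeq2 1.42.0, limma 3.58.1 on log2(FPKM + 0.1) and log2(FPKM + 1), median-of-ratios size factors, no filter, only the groups compared, removal of each library's loess trend on transcript length (span 0.5), a replicate block with and without that removal, and each library left out. The scripts were tested on simulated data.

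Same-numbered PBS and RANKL libraries deviated together weakly (correlations of 0.122, 0.219 and 0.155), while those of unlike number ran from -0.144 to 0.00682. The deviations sum to 0 within a group, so these correlations are not independent and cannot establish a pairing. The main fit therefore holds no pairing, and the replicate block is given as an alternative. The labels do not state what a number stands for.

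The members and lists were chosen with earlier results of these data known. In each complex, the text names the member with the highest mean FPKM and those with the largest rise and fall in the first comparisons, all of complex II, Cyc1, Cycs and the isoform pairs. Other members named were chosen after their values were seen. The values of 1 member are not reported here, though it stays in all counts, sums and medians.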

Additional observations from a re-analysis of the deposited data

How the results depend on the processing

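Every alternative kept the direction of the members' medians for RANKL against PBS and for the vitamins against RANKL. Members called higher with RANKL numbered 45 with DESeq2 (51.7%, beside 3.72% of all genes) and 54 with only the groups compared (64.3%, beside 6.32%). With 1 library left out they numbered 1 to 50 (1.19% to 59.5%, beside 0.540% to 5.46% of all genes). The median was 0.60 with limma on log2(FPKM + 0.1). Members called lower with the vitamins than with RANKL numbered 31 with the length trend removed, with or without the replicate block (36.9%, beside 16.0% of all genes). They numbered 30 with only the groups compared (35.7%, beside 11.9%) and 19 to 60 with 1 library left out (22.6% to 71.4%, beside 9.16% to 25.2%). The median was -0.32 with the length trend removed, -0.33 with the block and that removal and -0.61 with limma on log2(FPKM + 0.1). Against PBS, the vitamin group had 16 members called higher (19.0%) with the length trend removed, with or without the block, beside 21.1% and 20.8% of all genes. The members called lower numbered 2 to 24 (the 24 being 28.6%, beside 26.5% of all genes) and the median ranged from -0.14 to 0.088 with 1 library left out. The replicate block gave 31 higher for RANKL against PBS (36.9%, beside 3.16% of all genes). For the vitamins against RANKL it gave 2 higher (2.38%, beside 17.4%) and 53 lower (63.1%, beside 17.2%). For the vitamins against PBS it gave 12 higher (14.3%, beside 20.4%) and 6 lower (7.14%, beside 21.0%). The vitamin libraries share only a number with the others (correlations of 0.00625, 0.0428 and 0.107 with RANKL). The block also called Cox7b (adjusted p = 0.024) and Cox7a2 (0.049) lower and mt-Co1 and Sco2 higher for the vitamins against RANKL, and Cox7a2l lower and Cox6a1 (0.025) and Cox7a2 (0.033) higher for the vitamins against PBS.

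Reversals were among values near 0. Ndufa12 for the vitamins against RANKL was -0.012 with DESeq2, -0.15 and -0.13 with limma on log2(FPKM + 0.1) and log2(FPKM + 1), -0.025 without the filter, -0.0010 with only the groups compared and -0.0021 with the replicate block. With the length trend removed, and then also with the block, Atp5a1 against PBS was 0.10 and 0.092, Atp5g3 against PBS 0.064 and 0.054, and Atp5g2 against RANKL 0.20 and 0.18. With both, Cycs against RANKL was 0.0055 and Cox4i1 for RANKL against PBS -0.0020. With 1 library left out, the vitamin values against RANKL ranged from -1.26 to 0.27 for Ndufs6b, -0.19 to 0.16 for Ndufa12, -0.13 to 0.039 for Atp5g2 and -0.36 to 0.13 for Cycs. Those against PBS ranged from -0.083 to 0.32 for Ndufc1, -0.19 to 0.10 for Atp5a1 and -0.31 to 0.042 for Atp5g3. The cause was not tested. Leaving out 1 library of 3 leaves fewer libraries for each estimate. Depth limits Cox6b2, Cox7a1, Ndufs6b and Cox6a2 outside the vitamin group, which had few counts.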
